A study of Mus musculus with 10 samples.

Results

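Dividing progenitors of the ganglionic eminences (GE) were studied in single-cell RNA sequencing libraries of the mouse cortex at E16.5, late in the birth of cortical neurons. Cells were selected on measured values, namely their own UMI counts of 8 genes. A cell was counted as a dividing GE cell if it held at least 1000 UMIs (unique molecular identifiers, each counting 1 captured mRNA molecule) and at most 10% mitochondrial UMIs, and met 3 further conditions. These were at least 2 UMIs of Dlx1 and Dlx2 together, at least 2 of the 5 genes Mki67, Top2a, Cdk1, Birc5 and Ube2c detected, and at most 1 UMI of Neurod6. The conditions were met by 2265 of the 65779 cells that passed the filters on UMIs and mitochondrial share, which is 3.44%. There was 1 library per embryo, so the embryo was the replicate: 3 were wild type (WT), 4 carried the Gatad2b stop allele on 1 chromosome (stop/+, Het) and 3 on both (stop/stop, KO). The stop allele is a germline tm1a allele of the EUCOMM collection on the C57BL/6N-A tm1Brd background. It is carried by every cell of the embryo, and no treatment was given. Gatad2b encodes a subunit of NuRD, a chromatin complex that joins histone deacetylation to nucleosome remodelling. Which embryos shared a litter is not given in the sources used here.

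The ganglionic eminences are transient swellings of the ventral forebrain, in which most inhibitory neurons of the cortex and striatum are born. Their progenitors switch on Dlx1 and Dlx2, and with them a programme of Dlx5, Dlx6, Gad2 and Sp9, while pallial progenitors above them use Emx1, Eomes and Neurog2 to make excitatory neurons. The medial eminence (MGE) is marked by Nkx2-1 and Lhx6, the lateral eminence (LGE) by Gsx2 and Six3, and the caudal eminence (CGE) by Nr2f2 and Prox1. Progenitors in the subventricular zone divide a few more times before their daughters leave the cycle and migrate, and a dissection of the cortex at this age holds both arriving young interneurons and any ventral tissue taken along with it.

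Each embryo gave 159 to 312 dividing GE cells and a sum of 2594721 to 5621883 UMIs over them. WT1, WT2 and WT3 held 159, 213 and 179 of these cells. Het1 to Het4 held 178, 209, 206 and 312, and KO1 to KO3 held 268, 271 and 270. Dividing GE cells had a median of 16249 UMIs and 4174 genes, against 13874 UMIs over all kept cells, and the embryo medians of 14234 to 17322 UMIs overlapped between genotypes. Their mitochondrial share had embryo medians of 3.17% to 3.36% in WT, 3.92%, 3.86%, 3.62% and 3.04% in Het1 to Het4 and 3.66% to 3.90% in KO, so that Het4 lay with WT and Het1 to Het3 near KO. The deposited file names carry 1 prefix for the 3 WT libraries and Het4 and another for Het1 to Het3 and the 3 KO libraries, and what the prefix stands for is not given in the sources used here. Xist, the RNA of the inactive X chromosome of females, was at 1761 to 1929 CPM (UMIs of a gene scaled to a common total per embryo) in WT2, Het1, Het3, Het4 and all 3 KO embryos and at or near 0 in WT1, WT3 and Het2. The Y-linked genes Ddx3y, Uty, Eif2s3y and Kdm5d were detected in WT1 and Het2 and stood at 0 in the other embryos. WT3 thus carried neither signal, and the Xist covariate used below groups it with WT1 and Het2. Of the 65282 distinct barcodes, 496 occurred in more than 1 library.

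The thresholds of the rule set the edge of the class. Exactly 2 Dlx1 and Dlx2 UMIs were found in 83 dividing GE cells and at least 10 in 1689, with a median of 17. Exactly 2 of the 5 cycle genes were detected in 338 cells and all 5 in 1339. Outside the class, 198 cells failed with 1 Dlx1 or Dlx2 UMI, 1426 with 1 cycle gene, 111 with 2 Neurod6 UMIs and 315 with more than 2, the rest of the rule being met. Cells with 10 or more UMIs of another cell type's markers numbered 75 among the 2265, and the Scrublet doublet score placed 146 dividing GE cells (6.45%) in the top-scoring share of their library, against 5.39% of all kept cells. Among dividing GE cells this share was 11.3%, 6.57% and 8.38% in WT, 3.93%, 6.70%, 5.34% and 9.62% in Het and 5.97%, 2.58% and 5.19% in KO. Every WT embryo lay above every KO embryo, with Het2 and Het4 within the WT range. The marked share of all kept cells, set by their number, was 5.73% to 6.48% in WT and 4.12% to 4.94% in KO. Its part in the differences below was examined only by fits with the marked cells removed.

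The class was checked on genes that the rule did not use. Every cell was thinned to 5000 UMIs to make detection comparable, which left 2213 dividing GE cells, 154 to 207 in each WT embryo, 171 to 304 in each Het embryo and 261 to 267 in each KO embryo. Another 3 classes served as references. Dividing pallial cells had the same cycle condition, no Dlx1 or Dlx2 UMI and at least 1 UMI of Emx1, Eomes or Neurog2 (1649 cells). Dlx1/Dlx2 cells with no cycle gene met the Dlx and Neurod6 conditions (9829 cells), and excitatory cells had at least 3 Neurod6 UMIs and no Dlx1 or Dlx2 UMI. Since all classes were cut from the same counts, these shares are descriptions without a test.

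The GE programme was present. Dlx5 was detected in 55.3% of dividing GE cells and in 1.14% of dividing pallial cells, Sp9 in 68.3% and 1.52%, and the antisense transcript Dlx6os1 in 73.2% and 1.90%. Gad2, which makes the transmitter GABA, was found in 53.8% of dividing GE cells and in 79.8% of the Dlx1/Dlx2 cells with no cycle gene. Excitatory cells, which should lack these genes, gave the background of free RNA: 0.894% for Dlx5, 1.08% for Sp9 and 1.78% for Gad2. Of the pallial genes, Emx1 was detected in 1.08% of dividing GE cells against 31.8% of dividing pallial cells, Eomes in 1.13% against 47.7% and Neurog2 in 1.27% against 46.8%. Dividing pallial cells were chosen on these genes, so their shares are set in part by that choice. Excitatory cells, not chosen on them, gave 24.7%, 7.54% and 12.7%. Emx2 was detected in 8.59% of dividing GE cells against 26.7% of dividing pallial cells, and Neurod2 in 5.51% against 53.0%. Without thinning, Dlx5 was detected in 77.9% and Gad2 in 74.3% of dividing GE cells.

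The cells combined this programme with genes of progenitors. Vim and Nes, cytoskeletal genes of radial glia, were found in 77.0% and 36.1% of dividing GE cells, against 17.4% and 7.75% of the Dlx1/Dlx2 cells with no cycle gene. Sox2 separated these classes less, with 92.3% against 81.4%. Hes5 and Slc1a3, which mark radial glia more narrowly, were found in 9.04% and 14.8%, below the 18.6% and 43.9% of dividing pallial cells. Excitatory cells gave 1.23% for Hes5 and 14.0% for Slc1a3, so the share of Slc1a3 is not read as expression. In CPM summed over an embryo and averaged over the 10 embryos, Gsx2 stood at 27.5 in dividing GE cells, 5.90-fold above the highest of the other 3 classes, with 1 CPM added to each side. Helt, a transcription factor of GABAergic progenitors, stood 8.87-fold above, Ccnd2, the D-type cyclin of neural progenitors, 5.10-fold at 3073.7 CPM, and Cdca7, which is induced in S phase, 4.40-fold. These 4 genes were named from their folds after the values were seen, and each was highest in dividing GE cells in 10 of 10 embryos.

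**Figure D1:**
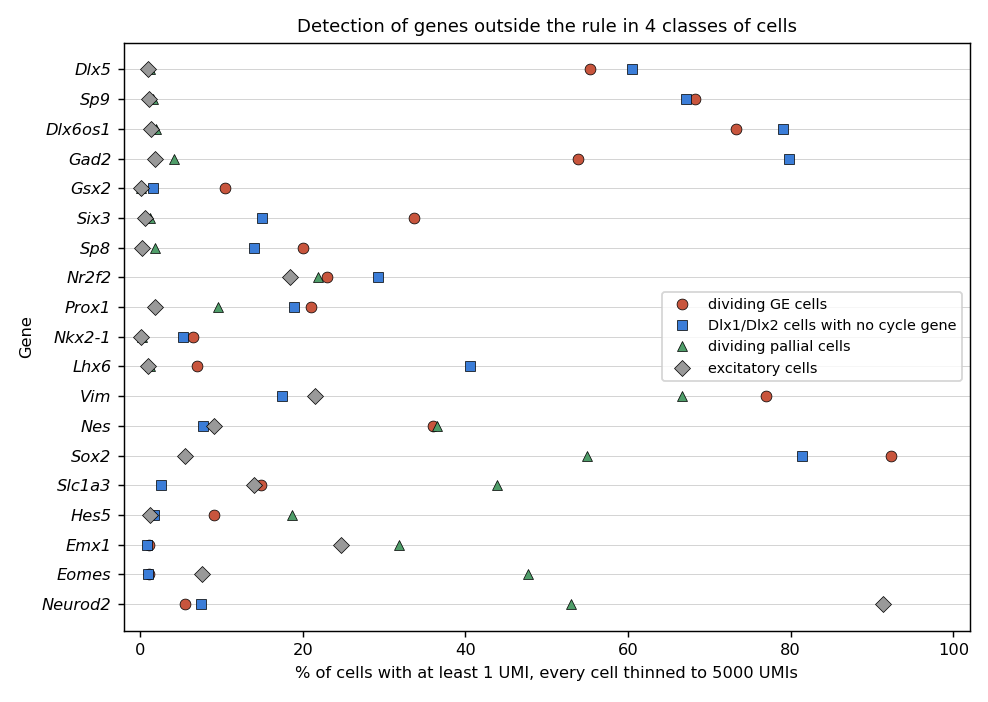
Share of cells with at least 1 UMI (x axis, %) for 19 genes that the rule did not use (y axis), after every cell was thinned to 5000 UMIs, in dividing GE cells (circles), Dlx1/Dlx2 cells with no cycle gene (squares), dividing pallial cells (triangles) and excitatory cells (diamonds), pooled over 10 embryos. Dlx5, Sp9 and Dlx6os1 lie at 55.3% to 73.2% in dividing GE cells and under 2% in dividing pallial cells, and Lhx6 lies at 6.96% in dividing GE cells and 40.5% in Dlx1/Dlx2 cells with no cycle gene.

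A UMI of the MGE genes Nkx2-1, Lhx6 or Lhx8 was found in 230 of the 2213 thinned cells (10.4%), of the LGE genes Gsx2, Isl1, Ebf1 or Six3 in 976 (44.1%), and of the CGE genes Nr2f2 or Prox1 in 766 (34.6%). None of them was found in 648 (29.3%). These genes were not equally particular to the GE. Nr2f2 was found in 23.0% of dividing GE cells against 21.9% of dividing pallial and 18.5% of excitatory cells, so the CGE share is not read as a share of CGE cells, while Prox1 was found in 21.0% against 9.54% and 1.75%. Ebf1, at 2.12%, lay below its 2.73% in excitatory cells. The sets overlapped: 98 of the 230 cells with an MGE gene also had a CGE gene, and 268 of the 976 with an LGE gene did, so no cell was given to 1 eminence. The Dlx1/Dlx2 cells with no cycle gene had a different makeup, with Lhx6 in 40.5% and Maf, a factor of MGE interneurons, in 54.6%, against 6.96% and 7.5% of dividing GE cells. Excitatory cells gave 0.926% for Lhx6 and 2.05% for Maf. Six3 showed the opposite order, at 33.6% of dividing GE cells and 15.0% of Dlx1/Dlx2 cells with no cycle gene.

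Within the class, the cells with an MGE gene also differed in genes that did not choose them. In CPM, Maf stood at 182 in these cells and 9.70 in the other dividing GE cells, Nxph1 at 76.3 and 5.18, and Erbb4, the neuregulin receptor of migrating interneurons, at 94.4 and 16.3. Npy and Sst, neuropeptides of MGE interneurons, stood at 77.3 and 7.76, and at 51.2 and 5.58. Sp8 and Foxp2 were the other way around, at 18.5 and 60.9, and at 36.2 and 85.1, as was Meis2 at 706 and 1501. All of these except Sst (8 of 10 embryos) and Meis2 (9 of 10) kept that order in 10 of 10 embryos. The genes were chosen for their folds, and the values carry no test.

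Dividing GE cells, which are cut by the rule above and are not a cluster of the study, took a larger share of the kept cells in mutant embryos. The share of kept cells was 1.96%, 2.98% and 2.29% in WT1 to WT3, where the 95% Wilson intervals, which cover counting error only, ran from 1.68% to 3.39%. It was 3.05%, 3.40%, 3.67% and 3.94% in Het1 to Het4. It was 4.57%, 5.27% and 4.37% in KO1 to KO3. The 3 genotypes did not overlap: every Het embryo lay above every WT embryo and every KO embryo above every Het embryo. The means were 2.41% ± 0.517 (SD, n = 3) in WT, 3.51% ± 0.382 (n = 4) in Het and 4.74% ± 0.469 (n = 3) in KO. Het exceeded WT by 1.1 percentage points (two-sided exact permutation p = 0.0571, the smallest that 3 against 4 embryos can give, adjusted p = 0.20 over 8 share comparisons). KO exceeded WT by 2.33 points, 1.96-fold (exact permutation p = 0.1, the smallest for 3 against 3, adjusted p = 0.20). Neither design can reach 0.05. Kept cells, the denominator, numbered 7159 to 8103 in the WT embryos and 7917 in Het4. They numbered 5613 to 6151 in Het1 to Het3 and 5147 to 6176 in the KO embryos, the libraries of the other prefix. By count of dividing GE cells, Het1 to Het3 lay within the WT range of 159 to 213. Het4 and every KO embryo lay above that range. The part of the denominator in the order of the shares was not tested.

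The order of the shares held among libraries of 1 prefix. KO exceeded Het1 to Het3 by 1.36 points without overlap (exact permutation p = 0.1), and Het4 lay 1.53 points above the WT mean. When every cell was thinned to 5000 UMIs before the rule was applied, the shares were 2.26%, 2.94% and 2.20% in WT, 2.59%, 3.11%, 3.11% and 3.75% in Het, and 3.82%, 4.65% and 4.06% in KO. KO still lay above WT and Het without overlap, while Het1 then lay within the WT range (Het minus WT 0.677 points, exact permutation p = 0.114). A share depends on how the cortex was cut: all cells with the Dlx and Neurod6 conditions ranged over 15.6% to 18.5% of kept cells among WT embryos, 18.3% to 23.7% among Het embryos and 20.7% to 25.7% among KO embryos, and the part of the dissection in the result was not tested.

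The share of dividing cells among these Dlx1/Dlx2 cells was 12.6%, 16.1% and 12.5% in WT, 16.7%, 14.3%, 15.8% and 17.7% in Het, and 22.1%, 20.5% and 19.8% in KO. Every KO embryo lay above every other embryo, while WT2 lay within the Het range. KO exceeded WT by 7.09 points (20.8% ± 1.18 against 13.7% ± 2.05, n = 3 each, exact permutation p = 0.1, adjusted p = 0.20). Het exceeded WT by 2.39 points (exact permutation p = 0.171, adjusted p = 0.274). With every cell thinned to 5000 UMIs before the rule was applied, KO exceeded WT by 5.63 points (exact permutation p = 0.1). Het then exceeded WT by 1.48 points (exact permutation p = 0.4). Among libraries of 1 prefix, KO exceeded Het1 to Het3 by 5.21 points, and Het4 lay 3.94 points above the WT mean. The part of the dissection in this share was not tested.

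Dividing pallial cells made up 2.20%, 2.22% and 1.72% of kept cells in WT, 3.22%, 2.1%, 2.81% and 2.6% in Het, and 3.24%, 2.55% and 2.85% in KO. Every KO embryo lay above every WT embryo here as well, the lowest Het embryo lay within the WT range, and Het and KO overlapped. MGE-marked cells made up 13.6%, 9.18% and 12.5% of the thinned dividing GE cells in WT, 5.26%, 15.2%, 12.3% and 10.5% in Het, and 3.83%, 7.17% and 15.7% in KO. The embryos of 1 genotype differed among themselves by more than the genotypes did (exact permutation p = 0.743 for Het and 0.6 for KO against WT). The share in excitatory cells, read as background, was 1.76%, 1.92% and 1.89% in WT and 0.396%, 0.651%, 1.38% and 1.09% in Het. It was 0.271%, 0.457% and 0.414% in KO. This background was thus higher in every WT embryo than in any mutant embryo. Its part in these shares and in the falls of genes in KO described below was not tested.

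**Figure D2:**
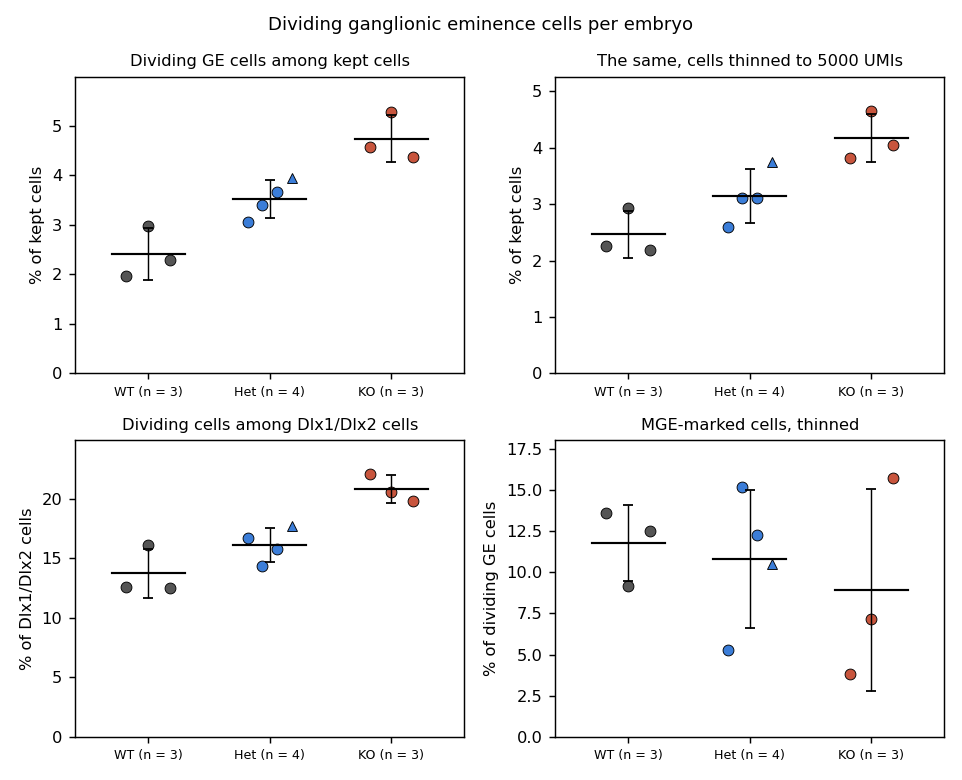
Shares per embryo (y axes, %) by genotype (x axes): dividing GE cells among kept cells, the same after thinning to 5000 UMIs, dividing cells among Dlx1/Dlx2 cells, and MGE-marked cells among thinned dividing GE cells. Each point is 1 embryo, the triangle is Het4, whose library has the prefix of the WT libraries, and lines show the mean ± SD. In the panel of dividing GE cells among kept cells the WT points span 1.96% to 2.98%, the Het points 3.05% to 3.94% and the KO points 4.37% to 5.27%, while the MGE-marked shares of the genotypes overlap.

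The genes of the rule itself are given as values. In TMM-normalised CPM, Dlx1 had means of 739, 705 and 737 in WT, Het and KO dividing GE cells, and Dlx2 of 411, 435 and 475. Neurod6, which the rule caps at 1 UMI per cell, stood at 21.0, 14.0 and 16.8 in WT. It stood at 13.3, 11.1, 6.86 and 13.7 in Het and 10.1, 10.6 and 10.4 in KO. WT lay above all other embryos, and the part of this cap in the shares was not tested. Each cycle gene was tested in a rule that left it out. Birc5, a subunit of the chromosomal passenger complex, then had means of 388 CPM ± 35.8 in WT and 479 ± 32.5 in KO, a log2 fold change of 0.30 (SE 0.10, edgeR adjusted p = 0.0718). Mki67, Top2a, Cdk1 and Ube2c had log2 fold changes of -0.10, -0.01, 0.13 and 0.06 in KO vs WT, and none of the 5 passed the threshold in KO or Het.

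For genes, UMIs were summed over the dividing GE cells of each embryo and 11446 genes were tested with edgeR. Calls needed an adjusted p under 0.05 together with a log2 fold change beyond 0.25 in either direction. In KO vs WT 739 genes were called (6.46% of those tested), 346 higher (3.02%) and 393 lower (3.43%). In Het vs WT edgeR called 0 genes, although 1473 had an unadjusted p under 0.05 and DESeq2 called 87. In KO vs Het 5 genes were called (0.0437%), 2 higher (0.0175%) and 3 lower (0.0262%). Over all genes tested, the 2 groups did not overlap for 28.7% in KO vs WT, 8.47% in KO vs Het and 10.9% in Het vs WT. Of the 739 genes called in KO vs WT, 716 had groups that did not overlap. Genes named below for their folds were chosen among called genes whose compared groups did not overlap. For them that lack of overlap is a description that follows from the choice and adds no support. Because the library prefix splits the Het group, a fit with the prefix as a covariate was also run. It called 6 genes in KO vs WT, Gatad2b, Pygo1, Lgals1, Crabp2, Igsf8 and Palld, so every other KO vs WT call below was lost in it. In this fit only Het4 against Het1 to Het3 separates prefix from genotype. A call lost there therefore does not tell whether the prefix sets the difference. Some lost calls kept their log2 fold change (Tk1, 0.53 without and 0.52 with the covariate), while others shrank (Pcna, 0.68 and 0.12). Leaving out 1 embryo moved the count of 739 to between 114 (without KO2) and 1008 (without Het4), and it was 386 without WT1, 153 without WT3, 342 without KO1 and 271 without KO3. With Xist presence as a covariate 212 genes were called.

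Gatad2b (ENSMUSG00000042390, chr3:90293178-90363407, mm10) stood at 151, 142 and 145 CPM in WT, 93.8, 103, 103 and 107 in Het, and 62.1, 69 and 77.2 in KO dividing GE cells. The genotypes stepped down without overlap, as their labels say. The log2 fold change was -1.07 in KO vs WT (SE 0.08, edgeR adjusted p = 2.65e-05), -0.55 in KO vs Het (adjusted p = 0.026) and -0.52 in Het vs WT (adjusted p = 0.0544). The counts come from 3′ ends of transcripts, so they do not tell whether the remaining RNA in KO makes protein. With the prefix as a covariate the KO vs WT value was -0.98 (adjusted p = 0.0256) and the KO vs Het value -0.53 (adjusted p = 0.0581), and the KO vs Het call was kept in 13 of 23 alternatives.

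Lgals1, Crabp2, Pygo1 and Igsf8 also passed in KO vs WT with the prefix as a covariate. Lgals1 (ENSMUSG00000068220, chr15:78926725-78930465), which encodes galectin-1, a lectin that binds cell-surface sugars, stood at 50.8, 58.5 and 51.4 CPM in WT, 71.5, 77.1, 83.6 and 67.6 in Het, and 183, 202 and 169 in KO. The 3 genotypes did not overlap. It rose by 1.78 on the log2 scale in KO vs WT (SE 0.10, edgeR adjusted p = 6.57e-07) and by 1.30 in KO vs Het (adjusted p = 6.03e-06). Crabp2 (chr3:87948666-87953376), which carries retinoic acid to its nuclear receptors, stood at 2.68, 3.01 and 1.75 CPM in WT, 8.37, 10.2, 10.4 and 12.3 in Het, and 16, 34.0 and 33.1 in KO. Its log2 fold change in KO vs WT was 3.44 (SE 0.34, adjusted p = 0.000228), from a WT level close to the limit of counting.

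Pygo1 (ENSMUSG00000034910, chr9:72925645-72952181), a co-activator of Wnt signalling that reads methylated histone H3, went the other way. It stood at 39.7, 31.9 and 38.8 CPM in WT, 28.2, 25.2, 20.3 and 23.5 in Het, and 10.3, 9.89 and 10.4 in KO, again without overlap. It fell by 1.84 in KO vs WT (SE 0.15, edgeR adjusted p = 2.65e-05) and by 1.24 in KO vs Het (adjusted p = 0.00335). Igsf8, an immunoglobulin superfamily protein that binds tetraspanins, stood at 91.3 to 94.0 CPM in the WT embryos, 103 to 112 CPM in the Het and 137 to 149 CPM in the KO embryos, with an adjusted p of 0.0315 in KO vs Het. Lgals1, Crabp2, Pygo1 and Gatad2b passed in KO vs WT under all 22 alternatives run, with the prefix as a covariate among them (1.58, 3.77, -1.89 and -0.98). Zcwpw1, the fifth gene called in KO vs Het (log2 fold change -1.32, adjusted p = 0.0293), encodes a reader of histone H3 methylation. The KO vs Het call of Zcwpw1 was kept in 11 of 23 alternatives, with 2 of the 10 that leave out 1 embryo among them, and was lost with the prefix as a covariate (-1.25, adjusted p = 0.0676). That of Igsf8 was kept in 8 of 23 and in 1 of those 10.

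Other genes with large increases in KO vs WT were Ptgds, which makes prostaglandin D2 (log2 fold change 1.5), Glipr2 (1.33), Smoc1, a secreted modulator of BMP signals (1.33), AC149090.1 (1.11), Tspo, a cholesterol-binding protein of mitochondria (1.06), Fuom (1.05), Shisa2 (1.04) and Insig1, a brake on sterol synthesis (1.03). Ptgds stood at 12.6, 17.6 and 8.04 CPM in WT, 26.2, 18.9, 26.4 and 21.8 in Het, and 33.8, 45.1 and 32.7 in KO dividing GE cells. The Het embryos lay between the others without overlap. With the prefix as a covariate the 8 genes kept their sign and none passed: Ptgds stood at 1.37 (edgeR adjusted p = 0.426) and AC149090.1, the smallest, at 0.29 (adjusted p = 0.962). The call of AC149090.1 was kept in 11 of 22 alternatives and in 2 of the 10 that leave out 1 embryo, and was lost with DESeq2.

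Several of the largest decreases moved with a few cells that carried markers of other types. Flt1, Cldn5, Ramp2 and Spock2 had log2 fold changes of -7.70, -7.24, -5.15 and -2.99 in KO vs WT. Cldn5, a tight junction gene of endothelium, stood at 159 CPM in WT1, 165 in WT3 and 49.5 in Het4, and at or below 1.51 in the other 7 embryos. The 3 endothelial markers summed to 233, 3.87 and 245 CPM in WT, 1.38, 2.06, 1.01 and 80.6 in Het and 0.853, 2.25 and 1.27 in KO, and 7 cells, 3 in WT1, 3 in WT3 and 1 in Het4, held 95.4% of these UMIs. Without the 75 cells that carried 10 or more UMIs of another type's markers, Flt1, Cldn5 and Ramp2 were too low to be tested and Spock2 had a log2 fold change of -0.52 (edgeR adjusted p = 0.452). Reln, the marker of Cajal-Retzius cells, went from -2.88 to -0.89 (adjusted p = 0.293) and Cnr1 from -1.79 to -1.32 (adjusted p = 0.0551).

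Other decreases were as large without those cells. Mpped1, a phosphoesterase gene of the forebrain, stood at 29.8, 29.9 and 31.1 CPM in WT, 16.4, 9.30, 10.4 and 21.4 in Het, and 10.1, 6.67 and 7 in KO. WT lay above all other embryos, and the highest KO embryo lay within the Het range. Its log2 fold change in KO vs WT was -1.93 (SE 0.27, edgeR adjusted p = 0.00291), and -1.81 without those cells. Luzp2 fell by 1.83, and Gria1, an AMPA receptor subunit, by 1.72. With the prefix as a covariate Mpped1 stood at -1.08, Luzp2 at -2.66 and Gria1 at -0.74 (adjusted p = 0.603, 0.516 and 0.850). The call of Luzp2 was lost in 9 of 22 alternatives, with DESeq2 and without WT2, WT3, KO2 or KO3 among them, and that of Gria1 in 4, with those without WT3 or KO2 among them. Neurod2, a gene of excitatory neurons, fell as well, by 0.97, from WT levels of at most 14.3 CPM. The 6 excitatory markers summed to 38.5 to 47.2 CPM in dividing GE cells of WT, 31.5 to 39.7 CPM in those of Het and 19.4 to 23.4 CPM in those of KO, and their part in the falls of neuronal genes was not tested.

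**Figure D3:**
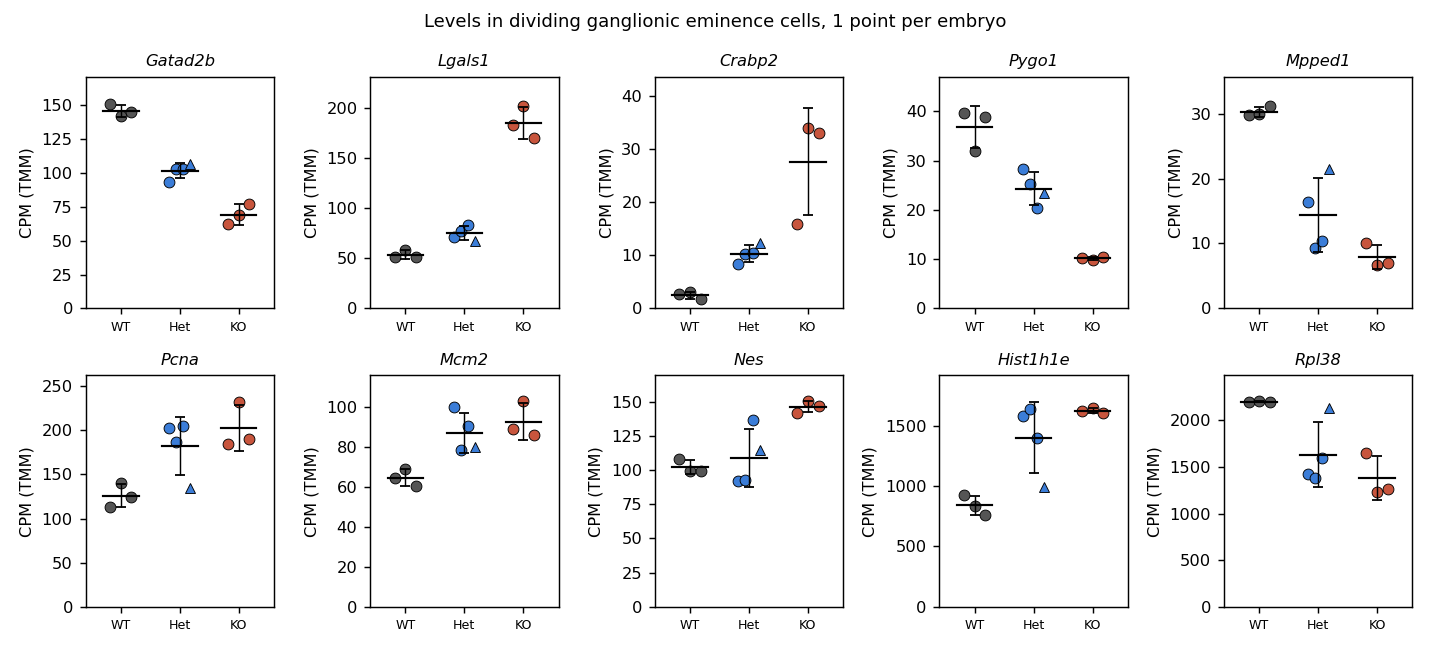
Levels of 10 genes in dividing GE cells (y axes, TMM-normalised CPM) by genotype (x axes), with 1 point per embryo, the mean ± SD, and a triangle for Het4, whose library has the prefix of the WT libraries. Gatad2b, Lgals1, Crabp2 and Pygo1 separate the 3 genotypes, Het4 included, while for Pcna (134), Hist1h1e (990.3) and Rpl38 (2131.5) Het4 lies closer to WT than Het1 to Het3 do.

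Of 20 transcription factors that define the GE lineage, 1 was called higher in KO vs WT and 0 lower, near the background of 3.02% and 3.43% over all genes, with a median log2 fold change of -0.01 against -0.02 over all genes. The 1 was Gsx2, an LGE factor that keeps progenitors immature, at 25.2, 22.6 and 9.09 CPM in WT, 25.8, 27.6, 31.8 and 24.2 in Het and 37.1, 37.7 and 35.4 in KO. KO lay above all other embryos, while WT and Het overlapped (log2 fold change 0.94, SE 0.23, edgeR adjusted p = 0.0293, and 0.70 with adjusted p = 0.826 with the prefix as a covariate). The call was also lost without KO1, KO2 or KO3 and with the Xist covariate. Dlx5 had a log2 fold change of -0.30 (adjusted p = 0.118) and Dlx6 of 0.08. Among 8 MGE genes 1 was lower, Maf, at 50.8, 42.6 and 51.7 CPM in WT, 25.1, 26.7, 30.7 and 36.2 in Het and 29.0, 26.9 and 21.4 in KO (-0.90, adjusted p = 0.00677). WT lay above the other embryos, and Het and KO overlapped. Without the 75 cells that carried other markers Maf stood at -0.56 (adjusted p = 0.0396). It did not pass with the prefix as a covariate (-0.52, adjusted p = 0.783) or with at least 3 cycle genes required (-0.44, adjusted p = 0.570). Of 10 LGE genes 1 was higher, Gsx2 again, and of 7 CGE genes 0 were called.

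Of 16 radial glia genes 2 were called higher and 0 lower in KO vs WT (3.02% and 3.43% over all genes), with a median log2 fold change of 0.21 and 14 of 16 positive, against 47.5% positive over all genes. Nes, the intermediate filament of neural stem cells, stood at 108, 99.3 and 99.6 CPM in WT, 91.7, 93.0, 136 and 114 in Het and 142, 150.4 and 147 in KO. KO lay above every other embryo, and the Het embryos lay on both sides of WT. It rose by 0.52 (SE 0.12, edgeR adjusted p = 0.027), and Sox9 by 0.53 (adjusted p = 0.0398). Het4 did not lie beyond Het1 to Het3 on the WT side for either gene. With the prefix as a covariate the values were 0.61 and 0.47, neither past the threshold. Without WT1, WT3, KO1, KO2 or KO3 in turn 0 of the 16 were called.

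Of 17 genes of the Notch pathway, which holds back differentiation in neighbouring progenitors, 3 were called higher and 0 lower (3.02% and 3.43% over all genes). Dll1, a Notch ligand of committed progenitors, stood at 34.8, 33.6 and 21.0 CPM in WT, 35.9, 36.3, 36.8 and 31.1 in Het and 44.5, 54.0 and 52.6 in KO (log2 fold change 0.75, edgeR adjusted p = 0.0142). Mfng, which modifies Notch receptors with sugars, rose by 0.51 (adjusted p = 0.00725) and Hes6, a helix-loop-helix factor that opposes Hes1, by 0.30 (adjusted p = 0.0392). Notch1, Notch2, Notch3, Hes1 and Hes5 were not called. In the lists of signalling genes, Gli3, the transcription factor of hedgehog signalling, rose by 0.86 and Ctnnb1, which encodes beta-catenin, by 0.29, while Egfr fell by 1.60 (adjusted p = 0.0404), out of 24 tested. None of these 6 genes passed with the prefix as a covariate. Of the 10 fits that leave out 1 embryo, Mfng passed in 10, Dll1 in 8, Gli3 and Ctnnb1 in 6 each, Egfr in 5 and Hes6 in 2, and Hes6 was also lost with doublets removed and with at least 3 cycle genes required.

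Some genes of S phase, in which DNA is copied, were higher in KO dividing GE cells. Of 52 tested, 9 were called higher and 0 lower (3.02% and 3.43% over all genes), the median log2 fold change was 0.18, and 46 of 52 were positive. Pcna, the clamp that holds DNA polymerase, stood at 113.5, 139.7 and 125 CPM in WT, 203, 186, 205 and 134 in Het and 185, 232 and 189.8 in KO. KO and Het1 to Het3 lay above WT, and Het4 within the WT range (log2 fold change KO vs WT 0.68, SE 0.14, edgeR adjusted p = 0.0181). Mcm2, a subunit of the replicative helicase, stood at 64.6, 68.7 and 60.5 in WT, 99.7, 78.6, 90.2 and 79.7 in Het and 88.9, 103 and 85.7 in KO (0.51, SE 0.10, adjusted p = 0.0142). All Het and KO embryos lay above WT, and Het and KO overlapped. Among the others called were Tk1 (0.53), Gmnn (0.48), Cdt1 (0.41), Rrm2 (0.40), Dut (0.27) and Prim1 (0.25). Gmnn and Cdt1 form the switch that lets DNA replicate once per cycle, and Tk1, Rrm2 and Dut supply or guard nucleotides.

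These S phase calls rest on few embryos. Without KO2 0 of the 52 were called, without WT3 1, without WT1 2, without KO3 4, without KO1 5 and without WT2 6, with medians between 0.15 and 0.22 in each case. Of the 10 fits that leave out 1 embryo Dut passed in 1. With the prefix as a covariate 0 were called and the median was 0.11, and with the Xist covariate 0 and 0.12. Het4 lay beyond Het1 to Het3 on the WT side for 4 of the 9 called genes. The share of all genes with that place of Het4 was not counted, so this count and the like counts below have no background. In the prefix fit Pcna stood at 0.12 (edgeR adjusted p = 0.958), Mcm2 at 0.35 (adjusted p = 0.811) and Tk1 at 0.52 (adjusted p = 0.656).

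Of 61 genes of G2 and mitosis 0 were called higher and 1 lower in KO vs WT (3.02% and 3.43% over all genes). The 1 was Hjurp, the loader of the centromeric histone (-0.35, edgeR adjusted p = 0.0267, and -0.12 with the prefix as a covariate), whose call was lost without any 1 of the WT or KO embryos. The median of the list was -0.03. S-phase genes gave 20.9%, 25.6% and 25.5% of the S and G2/M UMIs in WT, 27.5%, 24.6%, 27.4% and 25.5% in Het, and 25.7%, 27.8% and 25.8% in KO. KO lay above WT by 2.43 points, with WT2 and KO1 close together (exact permutation p = 0.1, adjusted p = 0.20), and the Het embryos overlapped WT (p = 0.286). WT1, at 20.9%, set most of the difference, which was 0.875 points without it. Of 25 cyclins, cyclin-dependent kinases, their inhibitors and E2F/Rb genes 1 was higher and 0 lower, near the same background: Gadd45g, a growth-arrest gene of committed progenitors (0.50, edgeR adjusted p = 0.0142, and 0.31 with the prefix as a covariate).

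The KO vs WT differences were next compared with those in dividing pallial cells of the same embryos, by the difference between the classes within each embryo. Het and KO share the WT embryos in these comparisons. In KO vs WT 7 of 12506 genes differed between the classes (0.056%), and in Het vs WT 0 did, with 802 at an unadjusted p under 0.05. Of the 7, 4 were more positive in dividing GE cells: Mcm2 by 0.74 (SE 0.12, edgeR adjusted p = 0.0495), Pclaf by 0.73 (SE 0.10, 0.0335), Prim1 by 0.71 (SE 0.10, 0.0335) and Uhrf1 by 0.64 (SE 0.09, 0.0415). Uhrf1 keeps DNA methylation in place behind the fork, Pclaf binds the Pcna clamp, and Prim1 makes the primers of the lagging strand.

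Pclaf (chr9:65890237-65903266) stood at 834, 898 and 852 CPM in WT, 960.1, 931, 928 and 914 in Het and 937, 931 and 882 in KO dividing GE cells, where KO and WT overlapped. In dividing pallial cells it stood at 431, 419.8 and 436 in WT, 369, 385, 315 and 278 in Het and 295, 284 and 258 in KO, with every mutant embryo below WT and Het4 within the KO range. Its log2 fold change in KO vs WT was 0.09 in dividing GE cells (adjusted p = 0.337) and -0.62 in dividing pallial cells (adjusted p = 0.00893). Mcm2 (chr6:88883474-88898780) stood at 49.8, 46.4 and 42.3 in WT, 55.0, 49.8, 46.4 and 44.0 in Het and 35.8, 43.3 and 40.7 in KO dividing pallial cells, a log2 fold change of -0.22 (adjusted p = 0.273) against 0.51 in dividing GE cells.

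All 52 S-phase genes had a more positive KO vs WT difference in dividing GE cells, by 0.17 to 1.03 with a median of 0.55, where 50.1% of all genes did and their median was 0.00. In dividing pallial cells alone 0 of the 52 were higher and 12 lower (2.50% and 2.69% over all genes there), with a median of -0.31. In Het vs WT the difference was also positive for 52 of 52, with a median of 0.32. For the G2/M genes 32 of 61 were positive in KO vs WT and 57 of 61 in Het vs WT, with medians of 0.04 and 0.18. The CPM of the 52 S-phase genes, without TMM, summed to 6247, 6953 and 6493 in WT, 7401, 6993, 7311 and 7077 in Het and 7093, 7636 and 7186 in KO dividing GE cells. The sums in dividing pallial cells were 4239, 4035 and 3946 in WT, 4083, 3919, 3548 and 3346 in Het and 3414, 3285 and 3276 in KO. In each class KO did not overlap WT, in opposite directions.

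The sign was the same in the other fits, while the calls of single genes were not. All 52 stayed positive in KO vs WT without any 1 embryo, with medians from 0.42 to 0.62, and 50 of 52 with the prefix by class as a covariate, with a median of 0.67. The number of genes called was 0 with that covariate and 0 without WT1, WT3, Het1 or any 1 KO embryo, 2 without Het4, and 196 without WT2. The 2 classes were cut by different rules, and G2/M genes summed to 18944 to 23630 CPM in dividing GE cells and 8937 to 13089 CPM in dividing pallial cells, so the classes also differ in their mix of phases, whose part was not tested.

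**Figure D4:**
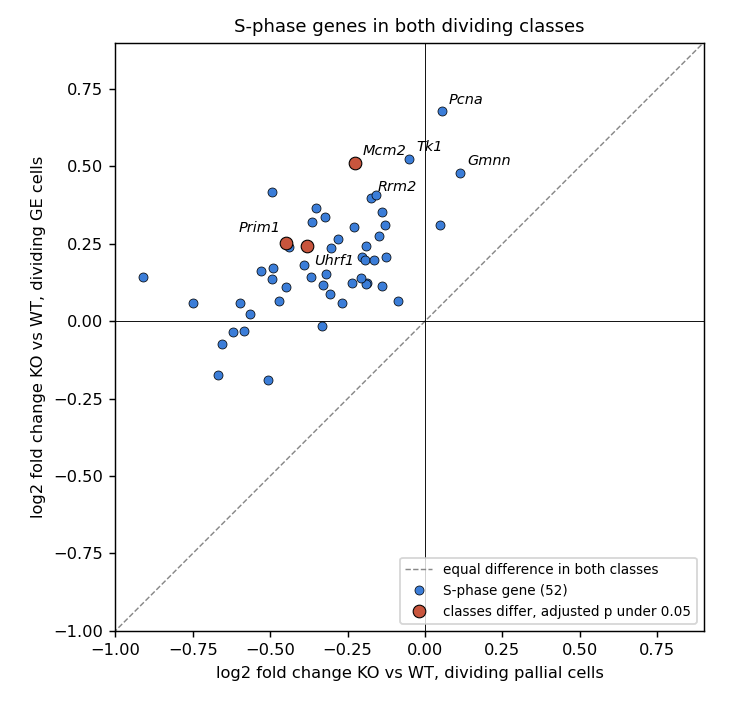
Log2 fold change KO vs WT of 52 S-phase genes in dividing pallial cells (x axis) and in dividing GE cells (y axis), from sums per embryo. All 52 points lie above the dashed line of equal difference, most with a positive value in dividing GE cells and a negative one in dividing pallial cells, and large points mark Mcm2, Prim1 and Uhrf1, whose classes differed at an adjusted p under 0.05.

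The other 3 genes were more negative in dividing GE cells. Pygo1 differed by -1.05 (SE 0.16, edgeR adjusted p = 0.0495), being at 42.0, 41.0 and 39.0 CPM in WT, 36.4, 37.4, 32.2 and 37.5 in Het and 25.8, 20.4 and 25.1 in KO dividing pallial cells, where it fell by 0.76. Nfix, a nuclear factor that promotes differentiation, differed by -0.48 (adjusted p = 0.0495). It stood at 548, 412 and 494 CPM in WT, 424, 434, 394 and 473 in Het and 355, 296 and 344 in KO dividing GE cells, with KO below all others. In dividing pallial cells Nfix stood at 1352 ± 96.4 in WT and 1311 ± 97.9 in KO. Fos, the immediate early gene that tissue handling can induce, differed by -0.93 (adjusted p = 0.0335). In dividing GE cells it stood at 95.9, 64.0 and 74.5 in WT, 137, 197, 154 and 61.2 in Het, and 127, 118 and 138 in KO, so that Het4 lay with the WT embryos of its prefix (log2 fold change KO vs WT 0.73, adjusted p = 0.155). In dividing pallial cells it stood at 79.9, 61.9 and 48.2 in WT, 143, 267, 208 and 77.4 in Het, and 212, 185 and 209.8 in KO (1.66, adjusted p = 0.0175), with Het4 in the WT range.

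Promoters of these genes are shown because E2F factors drive S-phase genes through a short motif and mitotic genes carry another, the cell cycle homology region (CHR). Windows of 300 bases, from 250 before to 50 after each start, came from RefSeq on GRCm38.p6, where 38 of the 52 S-phase genes and 51 of the 62 G2/M genes matched by symbol. The E2F letters searched were TTTCCCGC, TTTGGCGC, TTTCGCGC and TTTGCCGC, and the CHR letters TTTGAA, each on both strands. The E2F letters occurred in 16 of 44 S-phase windows (36.4%), 2 of 57 G2/M windows (3.51%) and 2.27% of all 32851 windows. The CHR letters occurred in 6 of 44 S-phase windows (13.6%), 38 of 57 G2/M windows (66.7%) and 17.9% of all windows. Among windows of the 9 S-phase genes called higher in KO, 1 of 7 held the E2F letters (14.3%), and among those of the 4 genes more positive in dividing GE cells than in pallial cells 2 of 5 did (40.0%).

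A match is a run of letters, not a site shown to be bound. The windows of 3 of the 4 genes that differed between the classes follow, 5′ to 3′ on the strand of the gene, with E2F letters in capitals. Mcm2 (chr6:88898731-88899030, minus strand) held none. Pclaf (chr9:65890073-65890372, plus strand) held them on the reverse strand and Uhrf1 (chr17:56304063-56304362, plus strand, the downstream of its windows) on the forward strand. Cdk1 (chr10:69352863-69353162, minus strand), a cycle gene of the rule, is shown with CHR letters in capitals. The motifs did not keep to 1 set: the Cdk1 window also holds the E2F letters TTTCGCGC, and the Mcm2 window the CHR letters TTTGAA, both in lower case here.
Mcm2: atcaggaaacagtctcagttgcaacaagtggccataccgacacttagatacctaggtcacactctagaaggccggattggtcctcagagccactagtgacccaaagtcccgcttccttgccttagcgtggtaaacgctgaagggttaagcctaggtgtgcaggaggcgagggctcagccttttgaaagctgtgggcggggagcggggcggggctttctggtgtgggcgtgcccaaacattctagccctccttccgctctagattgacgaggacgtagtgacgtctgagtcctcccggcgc
Pclaf: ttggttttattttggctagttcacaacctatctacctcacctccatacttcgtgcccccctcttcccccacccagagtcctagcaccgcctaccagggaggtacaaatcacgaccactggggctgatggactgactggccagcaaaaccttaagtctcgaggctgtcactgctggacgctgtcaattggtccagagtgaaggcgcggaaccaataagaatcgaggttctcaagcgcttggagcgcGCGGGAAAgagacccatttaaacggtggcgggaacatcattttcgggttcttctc
Uhrf1: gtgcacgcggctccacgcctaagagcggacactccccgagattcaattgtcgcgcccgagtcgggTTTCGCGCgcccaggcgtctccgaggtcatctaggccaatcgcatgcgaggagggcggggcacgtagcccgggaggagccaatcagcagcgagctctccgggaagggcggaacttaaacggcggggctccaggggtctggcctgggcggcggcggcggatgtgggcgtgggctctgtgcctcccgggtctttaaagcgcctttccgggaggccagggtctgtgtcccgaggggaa
Cdk1: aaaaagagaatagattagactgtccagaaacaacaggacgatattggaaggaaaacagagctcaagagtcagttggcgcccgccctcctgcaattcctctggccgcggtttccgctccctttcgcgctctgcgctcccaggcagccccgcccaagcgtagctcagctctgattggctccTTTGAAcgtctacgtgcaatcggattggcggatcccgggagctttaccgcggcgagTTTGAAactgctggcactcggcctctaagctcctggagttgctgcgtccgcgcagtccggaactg

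Of 58 replication-dependent histone genes, whose transcripts normally lack a poly(A) tail and are captured in part, 7 were called higher and 2 lower in KO vs WT (3.02% and 3.43% over all genes, so that the count of lower genes was near the background). Hist1h1e, a linker histone, stood at 923, 835 and 760.0 CPM in WT, 1580.5, 1638, 1402 and 990.3 in Het and 1622, 1645 and 1604 in KO dividing GE cells (0.95, SE 0.14, edgeR adjusted p = 0.004). Hist1h2ap, an H2A gene with near-identical copies, stood at 3731, 5014 and 4012 in WT, 2514, 2278, 2495 and 4460 in Het and 2754, 2275 and 1973 in KO (-0.87, adjusted p = 0.0305). In both genes Het1 to Het3 lay at or near the KO level and Het4 near the WT level. Het4 lay beyond Het1 to Het3 on the WT side for 7 of the 9 genes called, where the share over all genes was not counted. With the prefix as a covariate 0 were called and Hist1h2ap stood at 0.01. Of 21 genes of replication-independent histones, HMG proteins and HP1 heterochromatin proteins 5 were higher and 0 lower: the histones H2afz, H3f3b, H1f0 and H1fx, and Cbx3, which encodes an HP1 protein (0.27 to 0.58). With that covariate 0 were called, and of the 10 fits that leave out 1 embryo H2afz passed in 5 and H1fx in 3.

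Of 16 NuRD genes 1 was called higher and 2 lower in KO vs WT (3.02% and 3.43% over all genes). Beside Gatad2b, Chd4, the remodelling ATPase of the complex, fell from 417, 433 and 449 CPM in WT to 363, 366 and 350 in KO, with 385, 373, 382 and 435 in Het (-0.27, edgeR adjusted p = 0.0388, and -0.07 with the prefix as a covariate). The WT and KO embryos did not overlap, and Het4 lay within the WT range. The call of Chd4 was kept in 11 of 22 alternatives and in 3 of the 10 that leave out 1 embryo, and was lost without any 1 of the WT or KO embryos and with no filter on low counts. Cdk2ap1 stood at 131, 141 and 112 in WT, 212, 211, 219 and 124 in Het and 214, 268 and 227 in KO (0.88, adjusted p = 0.0142), also with Het4 in the WT range, and at 0.09 with the prefix as a covariate. Gatad2a, the paralogue of Gatad2b, was not called.

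Ribosomal protein genes showed the same arrangement. Of 83 tested 17 were called higher and 5 lower (3.02% and 3.43% over all genes). Het4 lay beyond Het1 to Het3 on the WT side for 21 of these 22, again without a count over all genes. Rpl38, 1 of the 5 that fell, stood at 2193, 2202 and 2193 CPM in WT, 1419.7, 1378, 1591 and 2131.5 in Het and 1647, 1235 and 1258 in KO (-0.67, edgeR adjusted p = 0.0168). The 3 WT embryos and Het4 lay together above all 6 libraries of the other prefix. Here prefix and genotype cannot be told apart by the call, since 0 of the 83 passed with the prefix as a covariate.

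Some genes of the differentiating inhibitory neuron were lower in KO dividing GE cells. Of 27 tested 6 were called lower and 0 higher (3.43% and 3.02% over all genes), the median log2 fold change was -0.26, and 2 of 27 were positive. Mapt, the microtubule protein tau, stood at 138, 163 and 167 CPM in WT, 119, 90.3, 74.9 and 126 in Het and 83.6, 66.7 and 59.2 in KO (-1.16, SE 0.17, edgeR adjusted p = 0.00431). WT lay above every mutant embryo, and Het and KO overlapped. Npy (-1.66), Grin2b (-1.37), Nrxn3 (-0.40) and Celf4 (-0.28) were also called. Gad1, Gad2, Dcx and Tubb3 were among those not called.

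Mapt passed without any 1 embryo in turn. The calls named beside it were lost more often: of the 10 fits that leave out 1 embryo, Npy and Grin2b passed in 6 each and Nrxn3 and Celf4 in 5 each. Npy and Celf4 were also lost with doublets removed and with at least 3 cycle genes required. Grin2b and Celf4 were lost in cells with no Neurod2, Neurod6, Eomes or Emx1 UMI. Mapt also passed in the fit without the 75 cells that carried other markers (-1.14). With the prefix as a covariate 0 of the 27 were called and the median was -0.24 (Mapt -0.74, edgeR adjusted p = 0.661). In dividing pallial cells 6 of 23 genes of this list were lower and 0 higher (2.69% and 2.5% over all genes of that class), with a median of -0.35, and 0 of the 27 differed between the classes. In Het vs WT 0 genes were called in any of the lists described here. The Het medians were 0.15 for S phase, -0.07 for inhibitory differentiation and 0.08 for radial glia. Fewer cells at a late stage and less RNA per cell cannot be told apart in sums of this kind.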

How the data were processed

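Single-cell libraries (10x 3′ v3 chemistry) were made from the dissected cortex of single embryos at E16.5. The authors deposited UMI counts per gene and barcode for each embryo, not normalised, made with Cell Ranger on mm10 per the file headers (version 6.0.2) and the labels. These counts were used as deposited, and no column of per-sample values was left unmapped (0). A floor of 1000 UMIs and a ceiling of 10% mitochondrial UMIs were set per cell, as in the study's methods, and genotypes were taken from the labels.

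Counts of dividing GE cells were summed per embryo and tested with edgeR 4.0.16 in R 4.3.3 (quasi-likelihood test, filterByExpr, TMM, 10 embryos in 1 fit, Benjamini-Hochberg adjustment). The study's methods test single cells within clusters; sums replaced this because the embryo is the replicate. The 8 genes of the rule stayed in library sizes and out of the test. Differences between cell classes were tested by the interaction of class and genotype with the embryo as a block. Shares were compared by two-sided exact permutation tests (35 splits for 3 against 4 embryos, 20 for 3 against 3). Wilson intervals cover counting error only. Doublets were marked with Scrublet in scanpy 1.11.5 at 0.8% per 1000 kept cells, kept in the analysis, and removed as an alternative. Other tools were Python 3.11.15, scipy 1.17.1, DESeq2 1.42.0 (an alternative test) and matplotlib 3.10.9. The gene tests were tested on simulated data with known changes. Levels of genes are TMM-normalised CPM; sums of lists and levels by cell class are CPM without TMM. Gene coordinates are from GENCODE vM21, which matched 30934 of the 31053 gene identifiers.

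The members and gene lists were chosen with earlier results of these data known. Named genes were, for each comparison, up to 10 increases and 10 decreases by fold change among called genes with a mean of at least 10 CPM and groups that did not overlap, without sex-linked, hemoglobin and ribosomal RNA genes, and members of the lists. For the difference between classes they were up to 5 in each direction. Clustering and other cell types were not analysed here, and a few genes are not reported here.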

Additional observations from a re-analysis of the deposited data

Results flagged for a closer look

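In the Het group, the value farthest from the other 3 embryos was tested by the ratio of its gap to the whole range of the group, against Dixon's 95% critical value for 4 samples. Chance flags about 1 in 20 groups of independent values that were not chosen beforehand. Most of the 108 values tested were of genes called in KO vs WT, whose libraries also differ in prefix, and some move together. The rate of 1 in 20 is therefore no yardstick for them. Of the 108, 12 were flagged, 10 of them in Het4, whose library shares its prefix with WT. In Het4 dividing GE cells Flt1 stood at 20.5 CPM, Cldn5 at 49.5, Ramp2 at 26.0 and Spock2 at 42.8, all above Het1 to Het3, and 1 cell with 10 or more UMIs of endothelial markers was found there. Dll1 stood at 31.1, Cdk2ap1 at 124 (123.55) and Rps2 at 1331 in Het4, below Het1 to Het3. Mfng stood at 72.7, Hist1h2ap at 4460.3 and Rps18 at 1535 in Het4. Rplp0 stood apart at 2739.6 in Het1, and Ube2c, a gene of the rule, at 1088 in Het2. Whether the library prefix, the litter or the embryo sets these values was not tested.

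The KO vs WT difference was not the same in dividing GE and dividing pallial cells for 7 genes by the interaction test in edgeR. The difference between the log2 fold changes was 0.74 for Mcm2, 0.73 for Pclaf, 0.71 for Prim1, 0.64 for Uhrf1, -1.05 for Pygo1, -0.93 for Fos and -0.48 for Nfix, with adjusted p between 0.0335 and 0.0495. None of the 7 passed with the prefix by class as a covariate.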

How the results depend on the processing

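Shares kept their direction in every alternative, with 1 exception: the MGE-marked share, Het minus WT, turned from -0.96 points to 1.28 with at least 3 cycle genes required and to 0.887 without Het1 (range without 1 embryo -2.42 to 0.887). Without 1 embryo the share of dividing GE cells differed by 0.880 to 1.39 points in Het and 2.06 to 2.61 in KO.

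The count of called genes depended on the fit. In Het vs WT it went from 0 to 87 with DESeq2, 188 with no filter on low counts, 2 with doublets removed, 2 in cells with no Neurod2, Neurod6, Eomes or Emx1 UMI, and 0 to 290 without 1 embryo (290 without Het4, 32 without WT2). In KO vs WT it went from 739 to 1340 with no filter, 6 with the prefix as a covariate, 478 with at least 3 cycle genes, 441 in cells with no such UMI and 114 to 1008 without 1 embryo. In KO vs Het it went from 5 to 16 with DESeq2, 62 with no filter, 8 with doublets removed and 2 to 5 without 1 embryo. For the difference between classes it went from 0 to 74 in Het with no filter and 0 to 1 without 1 embryo, and in KO from 7 to 16 with doublets removed, 486 with no filter and 0 to 196 without 1 embryo. Of alternatives chosen after seeing the data, leaving out cells with 10 UMIs of another cell type gave 22 in Het vs WT, 18 in KO vs Het and 38 between classes in KO, Xist as a covariate gave 212 in KO vs WT and 2 in KO vs Het, and the prefix by class gave 0 between classes in KO. The values of 3 genes turned sign with the prefix as a covariate: Hist1h2ap to 0.0112, Hist1h3d to 0.0179 and Hist1h1c to -0.0619. The cause was not tested.

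Whether same-numbered embryos shared more than a number is not given in the sources used here. The correlations of their deviations ran from -0.15 to 0.11. The same number gave the best match for each KO embryo among Het1 to Het3 and for Het2 among the WT embryos, but not in the other pairs. With the replicate number as a block, edgeR called 376 genes in Het vs WT, 1039 in KO vs WT and 5 in KO vs Het, and the share of dividing GE cells differed by 0.962 points in Het and 2.33 in KO. With 159 to 312 cells per embryo, genes at a few CPM rest on few UMIs.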

Other observations

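Markers of other cells were present at different levels in the sums of dividing GE cells. Erythroid genes, which code for hemoglobin, summed to 5473, 141 and 3910 CPM in WT, 37.2, 72.5, 2959 and 1270 in Het and 64.4, 4839 and 49.9 in KO. The genotypes overlapped, and high and low embryos occurred in each. Of these UMIs 96.5% were in 13 cells that held at least 10 of them, 0 to 3 per embryo. Oligodendrocyte precursor markers reached 10 UMIs in 25 of the 2265 cells, and Olig2, which GE progenitors of this lineage share, was detected in 9.58% of thinned dividing GE cells against 3.60% of dividing pallial cells.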
